A study of Mus musculus with 69 samples.

Results

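The genes described here are 39 mouse genes of the hypoxia response and of glycolysis, chosen by name, out of 15924 genes measured in 3 deposited expression tables. All 39 had values in the table of wild-type and EZH2 mutant cells and in that of replated cells. The DMSO and GSK343 table held 38, all but Car9. They were grouped by role: 6 genes of oxygen sensing and feedback, 2 secreted signals, 3 sugar and lactate transporters, 14 glycolytic enzymes, 3 switches of glycolytic flux, 5 genes of mitochondria and energy stores, 4 of protein hydroxylation, oxidative folding and pH, and 2 that restrain growth.

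Cells sense oxygen through prolyl hydroxylases, which mark the alpha subunits of hypoxia-inducible factor (HIF) for destruction while oxygen is present. When oxygen falls, the alpha subunit is spared, pairs with Arnt and binds a short core sequence near its target genes. Those targets raise glucose uptake and glycolysis, divert pyruvate away from mitochondria, send out signals for vessel growth, and include hydroxylases that feed back on HIF itself. Pluripotent cells are known for a high glycolytic rate, and embryoid bodies are compact cell aggregates without a blood supply.

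All samples came from CJ7, a line of mouse embryonic stem (ES) cells, and the design asks how loss of EZH2 function bears on their differentiation. EZH2 is the subunit of Polycomb repressive complex 2 (PRC2) that methylates lysine 27 of histone H3 (H3K27me3), and GSK343 is a small-molecule inhibitor of its catalytic activity. ES cells were kept with LIF on a feeder layer of mouse fibroblasts, and embryoid bodies were made in hanging drops and collected at day 4 or day 8. Of 69 labelled samples, 42 were RNA libraries, and 41 of these in 16 groups had values.

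The DMSO and GSK343 table held ES cells, day 4 and day 8 embryoid bodies, each with DMSO or with 4 uM GSK343 from 3 days before differentiation to collection, 2 libraries in each of 6 groups. The other differentiation table, called the genotype table here, held the same 3 stages for wild-type cells and for EZH2 mutant cells without drug, 3 libraries in each of 6 groups. The labels used here give neither the allele nor the number of mutant clones. The replating table held embryoid bodies moved to ES cell medium for 5 days and collected at an age of 14 days, in 4 groups named for the agent before and after replating: DMSO then DMSO, DMSO then GSK343, GSK343 then DMSO (3 libraries each) and GSK343 then GSK343 (2 libraries, with another not analysed here).

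Depth was 5.01 to 22 M reads per library in the DMSO and GSK343 table, 7.17 to 28.5 M reads in the genotype table and 2.27 to 8.34 M reads in the replating table. The 45S ribosomal RNA gene Rn45s took 6.38 to 11.5%, 4.08 to 57.9% and 8.66 to 34.0% of reads. The labelled ES cells expressed Pou5f1 at 535 and 591 RPKM (read counts scaled to library depth and gene length) with DMSO. The Ezh2 transcript lay at 18.3 to 26.5 RPKM in the 9 mutant libraries and at 37.2 to 62.5 RPKM in the 9 wild-type libraries; GSK343 acts on the enzyme, which its transcript does not check. In the genotype table libraries differed by their number: Rn45s was at 6.02 to 13.4% in those numbered 1, 18.3 to 57.9% in those numbered 2, which were also the shallowest, and 4.08 to 5.63% in those numbered 3. Wild-type ES library 3 also had a summed level of 16 feeder fibroblast markers of 1791 RPKM, against 98.8 and 59.5 in libraries 1 and 2. Results from that table are therefore also given without the libraries numbered 2 or 3 where that changes a call. The labels do not say whether libraries came from separate cultures, so p-values measure the spread between these libraries, which may be technical.

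The promoters of the members whose level moved most with GSK343 at day 8 are printed first, because HIF acts through a short core motif there. These are Pdk1, which rose, and P4ha2, Pfkfb3 and Egln1, which fell; Pdk1 and Pfkfb3 have 2 windows each. Each window runs from 250 bases before to 50 after a transcription start, in RefSeq's GRCm38.p6, read 5′ to 3′ on the gene's strand. Capitals mark the core motif ACGTG or GCGTG on either strand (CACGT or CACGC when it lies on the other strand). A CACGTG holds the motif on both strands and counts as 2 matches.
Pdk1 upstream start, chr2:71872974-71873273, plus strand: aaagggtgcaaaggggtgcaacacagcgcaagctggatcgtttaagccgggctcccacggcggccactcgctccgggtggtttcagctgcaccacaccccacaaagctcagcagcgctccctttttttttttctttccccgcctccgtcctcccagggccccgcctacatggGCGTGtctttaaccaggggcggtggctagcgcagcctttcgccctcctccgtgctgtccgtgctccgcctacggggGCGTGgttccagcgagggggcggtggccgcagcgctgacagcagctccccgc
Pdk1 downstream start, chr2:71874654-71874953, plus strand: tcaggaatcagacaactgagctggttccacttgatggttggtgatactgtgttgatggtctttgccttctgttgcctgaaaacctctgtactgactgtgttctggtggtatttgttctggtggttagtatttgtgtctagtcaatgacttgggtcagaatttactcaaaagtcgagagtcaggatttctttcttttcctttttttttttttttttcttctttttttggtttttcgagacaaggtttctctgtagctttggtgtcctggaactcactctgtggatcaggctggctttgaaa
P4ha2, chr11:54100674-54100973, plus strand: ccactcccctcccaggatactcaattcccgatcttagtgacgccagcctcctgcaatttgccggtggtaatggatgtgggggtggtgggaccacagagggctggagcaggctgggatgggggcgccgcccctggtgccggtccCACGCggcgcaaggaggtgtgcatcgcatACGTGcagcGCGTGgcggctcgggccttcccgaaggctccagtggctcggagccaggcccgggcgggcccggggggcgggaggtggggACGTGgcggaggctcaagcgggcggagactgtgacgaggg
Pfkfb3 upstream start, chr2:11553880-11554179, minus strand: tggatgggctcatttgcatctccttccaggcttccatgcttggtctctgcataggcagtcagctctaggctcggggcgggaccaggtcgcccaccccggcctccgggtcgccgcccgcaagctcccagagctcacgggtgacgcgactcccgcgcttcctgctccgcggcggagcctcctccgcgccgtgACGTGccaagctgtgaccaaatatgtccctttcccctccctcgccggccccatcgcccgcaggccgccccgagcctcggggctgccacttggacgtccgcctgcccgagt
Pfkfb3 downstream start, chr2:11502041-11502340, minus strand: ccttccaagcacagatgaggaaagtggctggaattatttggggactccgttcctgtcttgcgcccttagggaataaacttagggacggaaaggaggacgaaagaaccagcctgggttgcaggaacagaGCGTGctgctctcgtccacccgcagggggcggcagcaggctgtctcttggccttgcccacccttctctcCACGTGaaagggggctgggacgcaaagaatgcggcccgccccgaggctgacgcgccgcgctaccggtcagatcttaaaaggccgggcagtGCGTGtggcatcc
Egln1, chr8:124949205-124949504, minus strand: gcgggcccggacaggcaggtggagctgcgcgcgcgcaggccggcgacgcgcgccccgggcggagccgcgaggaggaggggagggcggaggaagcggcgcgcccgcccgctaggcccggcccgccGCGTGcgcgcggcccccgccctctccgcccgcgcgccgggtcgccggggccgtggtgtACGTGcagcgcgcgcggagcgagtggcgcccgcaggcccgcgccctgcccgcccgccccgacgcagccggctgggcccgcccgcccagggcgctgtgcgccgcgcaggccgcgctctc

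The Pdk1 windows held 2 and 0 matches, P4ha2 held 4, the Pfkfb3 windows 1 and 4, and Egln1 held 2. Promoter windows were found for 36 of the 39 members, all but Bhlhe40, Slc2a3 and Ndrg1. A match was present in at least 1 window of 33 of these 36 genes (91.7%), against 7893 of 12217 measured genes (64.6%). Counted by window, the share was 43 of 54 (79.6%) for members and 9145 of 15449 (59.2%) for all measured genes. Gpi1, Tpi1 and Gys1 held no match. The windows richest in matches were those of Ldha, with up to 7, Fam162a with 6, and Hk1 and Bnip3 with 5 each. CACGTG stood in windows of Ldha, Pfkfb3, Bnip3 and Ak4. A match describes the letters only. Starts of 8 of the 36 members (22.2%) lay within 1 kb of an H3K27me3 peak merged over the wild-type stages, against 3196 of 12217 measured genes (26.2%). These were Egln1, Egln3, Vegfa, Adm, Pfkfb3, Ak4, P4ha2 and Car9. The authors' deposited table marks 12 of 39 members (30.8%) as PRC2 targets, against 4777 of 14833 genes (32.2%), and none of the 14 glycolytic enzymes is among them.

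With DMSO the members followed a shared course, with low levels at day 4 and high levels at day 8. The mean was lowest at day 4 in 37 of 38 members, Pdk1 being the exception, and highest at day 8 in 30 of 38. From ES cells to day 4, 29 of 38 fell and 0 rose (limma, adjusted p under 0.05), where 32.8% of all 14016 genes tested were called and 15.7% fell. The members' median log2 fold change was -1.14 and that of all genes 0.03, on the log2(RPKM + 1) scale used for every fold change here. From day 4 to day 8, 34 of 38 rose and 0 fell, where 41.4% of all genes were called and 23.3% rose, and the members' median was 1.63 against 0.05 for all genes. Those that did not pass in the latter step were Eno1, Pkm, Pfkfb4 and Pdk1. Both steps share the day 4 libraries, and the GSK343 comparisons share the DMSO libraries with them. The summed level of the feeder fibroblast markers, which also mark other mesenchyme, moved with these steps. It was 157 to 207 RPKM in DMSO ES cells, 17.01 to 20.3 at day 4 and 146 to 331 at day 8, while the cardiac muscle markers went from 8.32 to 8.77 RPKM at day 4 to 131 to 154 at day 8 and the primitive blood markers from 1.72 to 1.91 to 186 to 627. The part of these in the members' course was not tested. In such bulk samples fewer cells of a type and less RNA per cell cannot be told apart.

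**Figure D1:**
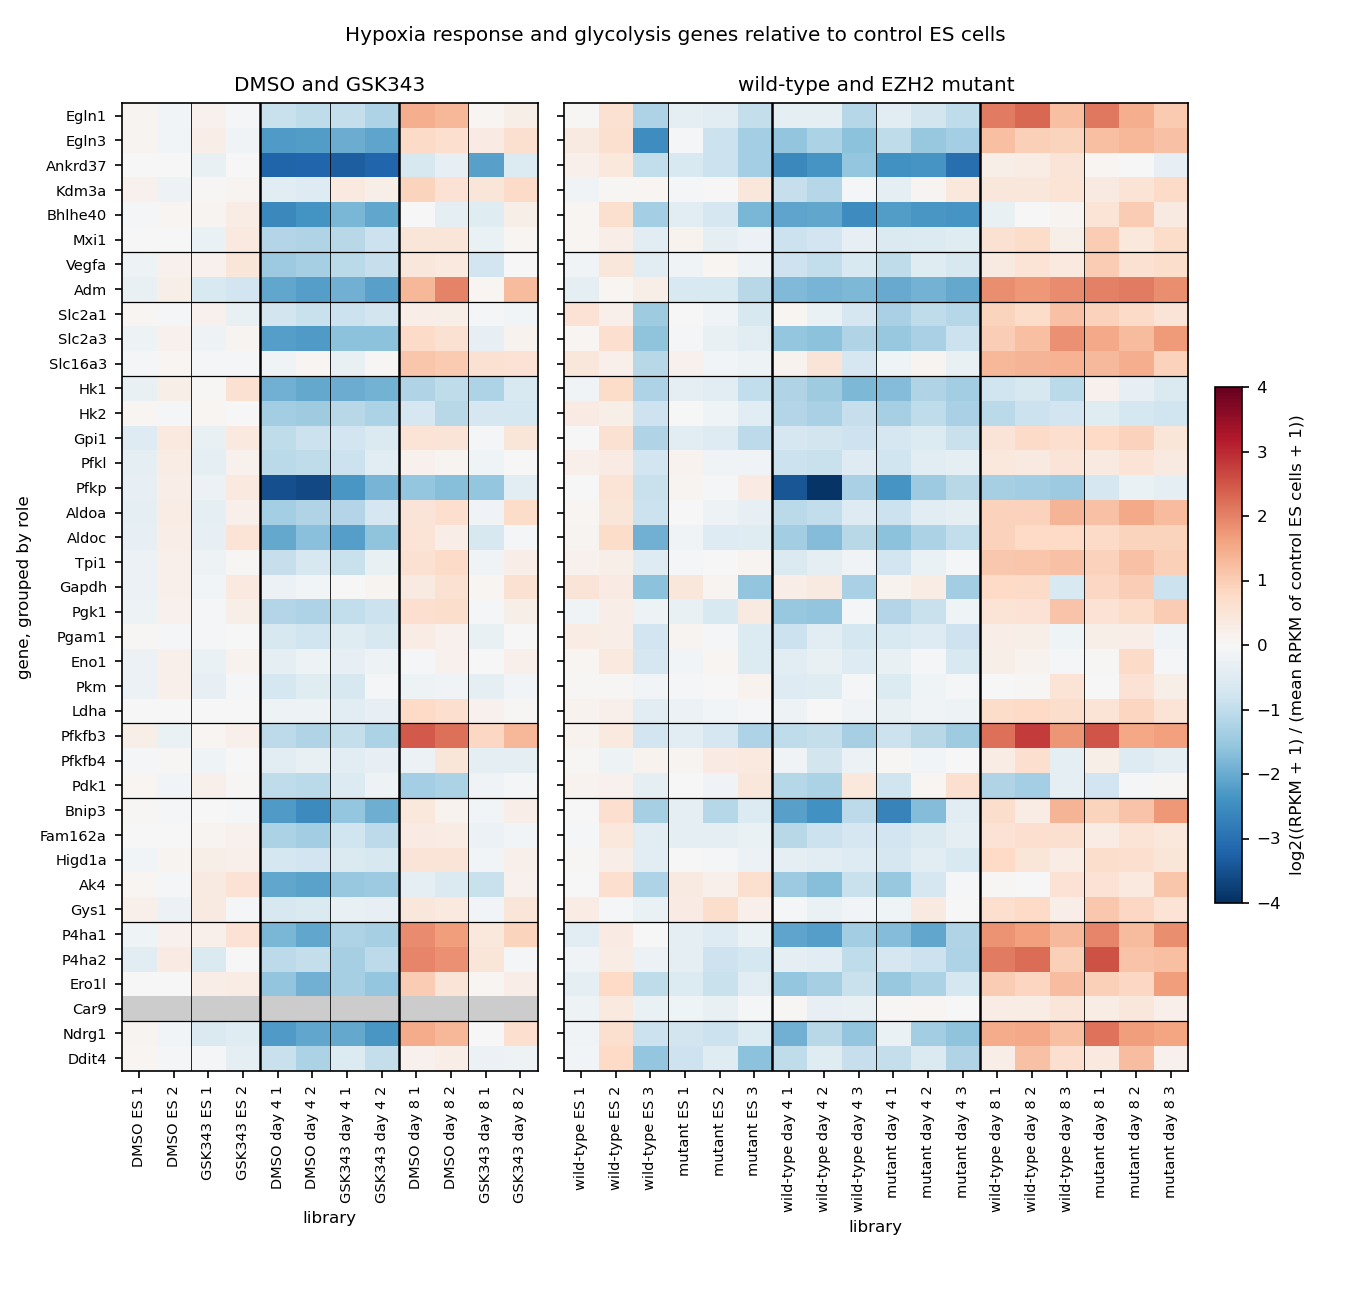
Heat map of the log2 ratio of each library's RPKM + 1 to the mean of DMSO ES cells + 1 (left) or wild-type ES cells + 1 (right), with genes in rows grouped by role and libraries in columns; grey marks Car9, which the left table does not hold. Day 4 columns are mostly blue and day 8 columns mostly red, with the mean lowest at day 4 in 37 of 38 members with DMSO and in 37 of 39 in wild-type cells.

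The same course was present in wild-type cells, where the mean was lowest at day 4 in 37 of 39 members and highest at day 8 in 34. From ES cells to day 4, 10 of 39 fell and 0 rose, where 8.67% of 14180 genes were called and 4.39% fell. This count depended on the libraries: it was 28 without library 3 of every group, 23 without wild-type ES library 3 alone, 2 (Adm and P4ha1) with these groups fitted alone, 5 or 6 without any other single library of wild-type ES cells or without day 4 library 1 or 2, and 0 without library 2 of every group. From day 4 to day 8, 31 of 39 rose and 0 fell, where 20.7% of all genes were called and 10.6% rose, and 4 rose without library 2 of every group. Those 4 were Adm, P4ha1, Pfkfb3 and Ndrg1. The counts under these other fits cover members only and do not show whether calls over all genes shifted alike. Markers of differentiated cells moved with this step too: the cardiac muscle markers summed to 5.09 to 8.16 RPKM at day 4 and to 254, 203 and 19.1 in the 3 day 8 libraries. The primitive blood markers summed to 1.92 to 4.21 RPKM at day 4 and to 319, 561 and 1.82 at day 8, and the feeder fibroblast markers to 11 to 20.8 and then 461, 482 and 87.5. Day 8 library 3 was far below the others in all 3 sums, and their part in the members' rise was not tested. Adm went from 0.288, 0.209 and 0.278 RPKM at day 4 to 15.2, 13.7 and 15.2 at day 8 in wild-type cells (log2 fold change 3.64, SE 0.18, adjusted p = 3.18e-08), and P4ha1 from 5.07, 4.75 and 8.99 to 91.7, 82.3 and 64.3 (log2 fold change 3.50, SE 0.27, adjusted p = 5.75e-06). Neither gene's day 4 and day 8 libraries overlapped. The 10 that fell to day 4 were Adm, P4ha1, Ankrd37, Pfkp, Bhlhe40, Fam162a, Hk2, Ndrg1, Vegfa and Hk1, and all 10 also fell in DMSO cultures.

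Wild-type ES library 3, the one with the high feeder marker sum, stood apart in several members. Ankrd37 was at 20.3, 23.6 and 8.32 RPKM in the 3 wild-type ES libraries, Ddit4 at 126, 236 and 45.7 and Gpi1 at 126, 190.0 and 53.4. In each of these genes library 3 was the lowest of its group. At day 4 the wild-type library 3 was high instead in Ankrd37, at 2.06, 2.58 and 5.33 RPKM, and in Pdk1, at 28.2, 25.9 and 86.1 RPKM. The part of the feeder markers in these levels was not tested. At day 8 the wild-type libraries of Ankrd37 lay close together at 20.7, 21.5 and 25.4 RPKM, and those of Gpi1 at 175, 209.8 and 195.

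GSK343 and DMSO cultures differed in no called member in ES cells, while at day 8 the called members were nearly all lower with GSK343. In ES cells 0 of 38 members and 0 of 14016 genes were called, with limma and with voom, and 1 member had an unadjusted p under 0.05. At day 4, 0 of 38 members were called with limma or with voom, where 0.628% of all genes were, and 9 members had an unadjusted p under 0.05. Kdm3a, Pdk1 and Pfkp were called there when the library number was added to the fit as a block. Calls over all genes in that fit are not given here. Of all 14016 genes, 669 in ES cells and 1448 at day 4 had an unadjusted p under 0.05. At day 8, 13 of 38 members fell and 1 rose, where 31.6% of all genes were called, 16.0% lower and 15.6% higher. The median log2 fold change of the members at day 8 was -0.46, against 0.00 for all genes, and the GSK343 mean lay below the DMSO mean in 31 of 38. Within the GSK343 arm the mean was lowest at day 4 in 36 of 38 members and highest at day 8 in 18 of 38. In 36 of 38 members the mean was higher at day 8 than at day 4 in both arms. With a fit of the day 8 groups alone the count of members called was 6, of which 5 were lower. Here and in the fits that follow, calls over all genes are not given. It was 7 (6 lower) without DMSO library 1, 9 (8 lower) without DMSO library 2 and 9 (6 lower, and Pdk1, Pfkp and Ak4 higher) without GSK343 library 1.

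**Figure D2:**
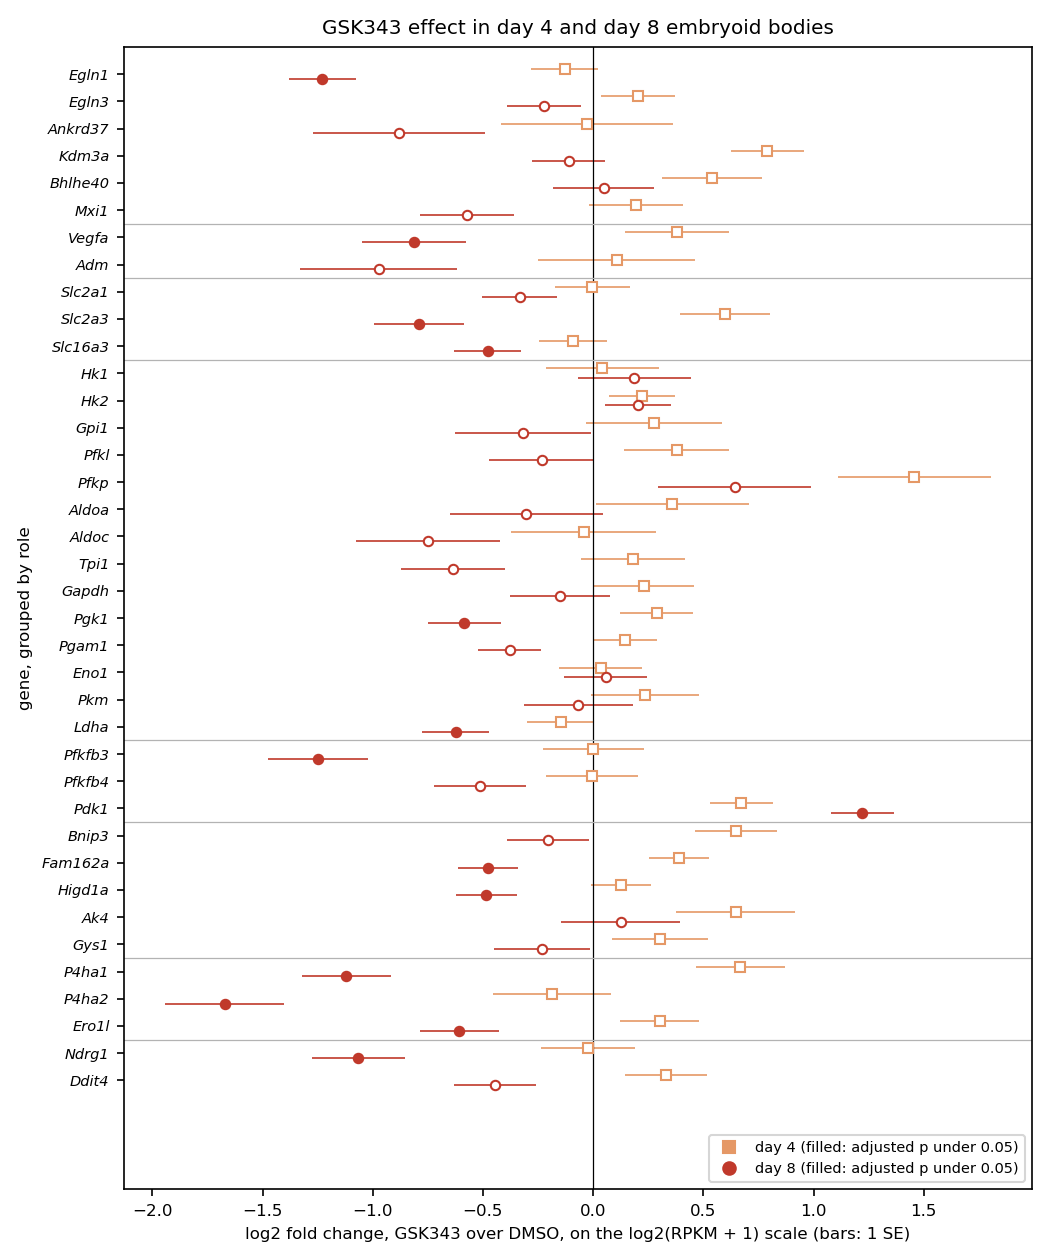
Log2 fold change of GSK343 over DMSO for each of 38 members at day 4 (squares) and day 8 (circles), on the log2(RPKM + 1) scale, with bars of 1 SE and filled symbols where the adjusted p was under 0.05. No day 4 symbol is filled, and at day 8 the filled symbols are 13 members below 0 and Pdk1 above it at 1.22.

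Markers of several cell types moved over the same day 8 comparison. The sum of 12 ES cell markers was 127 to 145 RPKM in DMSO libraries and 1009.7 to 1423 RPKM with GSK343, and 10 of the 12 rose. The 7 cardiac muscle markers summed to 131 to 154 against 14.01 to 35.6 RPKM, with 5 lower and 1 higher. The 7 primitive blood markers summed to 186 to 627 against 2.13 to 2.66 RPKM, all 7 lower and Hbb-y at 0 with GSK343. Visceral endoderm markers (4 of 6 tested lower) summed to 92.1 to 135 against 2.79 to 11.99 RPKM, and endothelial markers (5 of 6 lower) to 58.9 to 68.95 against 25.9 to 54.1. The 16 feeder fibroblast markers, 8 of them lower, summed to 146 to 331 and 22.3 to 92.7 RPKM. The GSK343 libraries also differed from each other: library 2 was above library 1 in 33 of 38 members, with a median ratio of 1.28, against 12 of 38 and a median ratio of 0.960 with DMSO. The part of these differences in the members' levels was not tested.

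Among the genes of oxygen sensing and feedback, Egln1 separated the arms most clearly. Egln1 encodes the main prolyl hydroxylase that marks HIF alpha subunits. Its level was 28.9 and 24.5 RPKM in the DMSO ES libraries, 13.8 and 12.6 at day 4 and 74.4 and 68.3 at day 8. With GSK343 it was 30.1 and 25, 13.3 and 10.8 and 28.2 and 31.5 RPKM at the same stages. The arms overlapped in ES cells and at day 4 and were apart at day 8, where Egln1 fell with GSK343 (log2 fold change -1.23, SE 0.15, adjusted p = 2.09e-04) in each of the alternatives tried. Egln3, another prolyl hydroxylase induced by HIF, rose from 4.15 and 4.19 to 40.6 and 38.2 RPKM with DMSO between day 4 and day 8 (log2 fold change 2.97, SE 0.17, adjusted p = 1.16e-06). Its GSK343 libraries at day 8 stood at 30.2 and 37.3 RPKM, both below the DMSO libraries, and it was not called. Ankrd37, an ankyrin repeat protein and HIF target, fell from 34.04 and 34.3 to 2.82 and 2.87 RPKM between DMSO ES cells and day 4 (log2 fold change -3.19, SE 0.39, adjusted p = 3.42e-04). Its GSK343 libraries at day 8 were far apart, at 6.84 and 22.95 RPKM, and one of them lay within the DMSO range of 21.7 and 27.1.

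Kdm3a, Bhlhe40 and Mxi1 complete this group. Kdm3a, a histone H3 lysine 9 demethylase induced by hypoxia, had 17.4 and 16.3 RPKM at day 4 with DMSO and 31.4 and 28.4 RPKM with GSK343. The day 4 arms did not overlap, yet the difference did not pass (log2 fold change 0.79, SE 0.16, adjusted p = 0.0763). It was called with the library number as a block. The Kdm3a arms overlapped at day 8, at 44.95 and 36.2 RPKM with DMSO and 33.8 and 41.1 RPKM with GSK343. Bhlhe40, a transcriptional repressor, fell from 23.3 and 26.2 to 3.29 and 3.93 RPKM from DMSO ES cells to day 4 (log2 fold change -2.48, SE 0.23, adjusted p = 8.10e-05), and stood at 24.6 and 19.2 RPKM at day 8 with DMSO and 17.3 and 29.2 RPKM with GSK343. Mxi1, an antagonist of Myc, had 16.8 and 16.8 RPKM at day 8 with DMSO and 9.61 and 12.6 RPKM with GSK343, and this difference was not called.

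Of the secreted signals, Vegfa drives vessel growth and Adm encodes adrenomedullin, a peptide that relaxes vessels. Vegfa had 13.6 and 14.96 RPKM at day 4 and 53.5 and 51.3 RPKM at day 8 with DMSO. At day 8 with GSK343 it had 22.2 and 38.8 RPKM, both below the DMSO libraries but far from each other (log2 fold change -0.81, SE 0.24, adjusted p = 0.0243). The Vegfa call was lost without DMSO library 1, DMSO library 2 or GSK343 library 1, and when only the day 8 groups were fitted. Adm was nearly silent at day 4, with 0.487 and 0.366 RPKM, and reached 14.8 and 23.9 RPKM at day 8 with DMSO (log2 fold change 3.80, SE 0.36, adjusted p = 3.12e-05). Its day 8 GSK343 libraries, at 5.71 and 14.2 RPKM, lay below both DMSO libraries by different amounts, and the difference was not called.

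The 3 transporters were abundant at day 8. Slc2a3 (GLUT3) and Slc2a1 (GLUT1) carry glucose into cells, and Slc16a3 (MCT4) carries lactate out. Slc2a3 went from 527 and 688 RPKM in DMSO ES cells to 130.2 and 126 at day 4 (log2 fold change -2.23, SE 0.20, adjusted p = 8.10e-05) and 1042 and 929 at day 8 (log2 fold change 2.93, SE 0.20, adjusted p = 4.49e-06). With GSK343 it was 193 and 196 RPKM at day 4, above DMSO but not called, and 479 and 674 at day 8, below DMSO and called (log2 fold change -0.79, SE 0.20, adjusted p = 0.0144). The arms thus lay in opposite order at day 4 and at day 8, with no overlap at either stage. The day 8 call was lost without DMSO library 1 or GSK343 library 1, and with the day 8 groups alone. Slc16a3 had 388 and 376 RPKM at day 8 with DMSO and 278 and 270.0 RPKM with GSK343, with no overlap, and was called lower (log2 fold change -0.48, SE 0.15, adjusted p = 0.0368). It lies outside the 12 members with the smallest p and is named after its values were seen. The Slc16a3 call was lost without DMSO library 1, DMSO library 2 or GSK343 library 1, and with the day 8 groups alone. Slc2a1 had 525 and 513 RPKM with DMSO and 417 and 406 RPKM with GSK343 at day 8, without overlap and without a call.

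Among the 14 glycolytic enzymes 9 fell from DMSO ES cells to day 4 and 12 rose from day 4 to day 8, while 2 fell with GSK343 at day 8. Of all genes tested, 15.7%, 23.3% and 16.0% were called in these directions. The count of enzymes lower with GSK343 was thus near the share of all genes. On the RPKM scale, which accounts for gene length, Aldoa (aldolase), Pkm (pyruvate kinase) and Ldha (lactate dehydrogenase) had the highest day 8 DMSO levels of the enzymes, at 1782 ± 134 RPKM (SD, n = 2), 1085 ± 34.4 RPKM (SD, n = 2) and 1053 ± 68.99 RPKM (SD, n = 2). Ldha, which turns pyruvate into lactate, had 1102 and 1004 RPKM at day 8 with DMSO and 716 and 650.4 RPKM with GSK343 and fell (log2 fold change -0.62, SE 0.15, adjusted p = 0.0109). That call was lost without DMSO library 1 and with the day 8 groups alone. Pgk1 (phosphoglycerate kinase) had 50.6 and 51.5 RPKM with DMSO and 30.4 and 37.4 with GSK343 at day 8 (log2 fold change -0.59, SE 0.17, adjusted p = 0.0221), a call lost without any of DMSO library 1, DMSO library 2 or GSK343 library 1 and with the day 8 groups alone. Tpi1 (triose phosphate isomerase) had 595 and 663 RPKM with DMSO and 353 and 461 RPKM with GSK343, with no overlap and no call. Pfkp, Hk2, Hk1 and Eno1 were the enzymes with a mean log2 difference above 0 at day 8, and none of them was called.

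Pfkp and Hk2 took another course within this group. Pfkp is the platelet-type isoform of phosphofructokinase, the committed step of glycolysis, and Hk2 is an inducible hexokinase. Pfkp was at 171 and 258 RPKM in DMSO ES cells, 17.9 and 16.8 at day 4 and 72.7 and 65.5 at day 8, so that it regained only part of its ES cell level. Its fall to day 4 was the largest of all members (log2 fold change -3.53, SE 0.35, adjusted p = 1.12e-04). With GSK343 Pfkp was at 41.7 and 58.1 RPKM at day 4, above both DMSO libraries, without passing (log2 fold change 1.46, SE 0.35, adjusted p = 0.111), and it was called with the day 4 groups fitted alone (1.46, adjusted p = 0.0420). Pfkp was also called at day 4 with the library number as a block. Hk2 fell from 119 and 107 to 42.9 and 41.3 RPKM to day 4 (log2 fold change -1.40, SE 0.15, adjusted p = 1.67e-04) and stood at 70.8 and 51.98 at day 8, also below its ES cell level. The liver-type isoform Pfkl was at 139 and 217 RPKM in DMSO ES cells, 83.99 and 88.1 at day 4 and 199.6 and 192 at day 8, where it was back within its ES cell range.

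The other enzymes differed in how far they moved between stages. Aldoa was at 889.9 and 1458 RPKM in DMSO ES cells, 459.5 and 513 at day 4 and 1688 and 1877 at day 8, and both steps passed. Its GSK343 libraries at day 8 were 1054 and 1970.2 RPKM, one on each side of the DMSO libraries. Aldoc, a brain-type aldolase, was at 36.2 and 55.4, then 10.4 and 13.7, then 67.2 and 55.3 RPKM with DMSO, and its GSK343 libraries at day 8, at 29.3 and 43.7 RPKM, were both lower without a call. Gpi1, the isomerase that follows hexokinase, rose from 64.9 and 73.7 RPKM at day 4 to 194 and 193 at day 8 with DMSO. Hk1, the widely expressed hexokinase, fell from 18.7 and 27.9 RPKM in DMSO ES cells to 5.45 and 4.88 at day 4 and rose to 9.63 and 11.1 at day 8, still below its ES cell libraries. Pkm and Eno1 (enolase) passed in no comparison of the DMSO and GSK343 table, with Pkm at 1043 and 1394 RPKM in DMSO ES cells, 743 and 873 at day 4 and 1061 and 1109 at day 8. Pgam1 (phosphoglycerate mutase) was at 23.4 and 21.7 RPKM at day 8 with DMSO and 15.2 and 19.2 RPKM with GSK343, apart but not called.

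Gapdh, a central enzyme of glycolysis, and Pgk1, Pgam1 and Eno1 have near-identical processed copies elsewhere in the genome, so their counts are uncertain where reads could be split or dropped. Gapdh ranged from 43.6 to 80.5 RPKM over the DMSO and GSK343 libraries and from 288 to 754 RPKM over the 11 replated libraries. In the genotype table Gapdh was at 21.5 to 45.3 RPKM in the 6 libraries numbered 3 and at 74.7 to 139.6 RPKM in the 12 numbered 1 or 2, without overlap, which no other gene of this group did. Eno1 ranged from 60.1 to 91.9 RPKM in the DMSO and GSK343 table and from 204 to 531 RPKM in the replated libraries. Levels were not compared across tables, which were normalized separately.

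Pfkfb3 and Pdk1, both switches of glycolytic flux, moved in opposite directions with GSK343 at day 8. Pfkfb3 makes fructose 2,6-bisphosphate, the activator of phosphofructokinase, and Pdk1 phosphorylates pyruvate dehydrogenase and so keeps pyruvate out of the citrate cycle. Pfkfb3 was at 5.07 and 3.29 RPKM in DMSO ES cells, 1.53 and 1.25 at day 4 and 27.4 and 22.9 at day 8 (log2 fold change 3.45, SE 0.23, adjusted p = 3.16e-06 for the last step). With GSK343 at day 8 it was at 8.22 and 12.03 RPKM, both below the DMSO libraries (log2 fold change -1.25, SE 0.23, adjusted p = 0.00228). Pdk1 fell from 104 and 90.9 RPKM in DMSO ES cells to 47.6 and 45.6 at day 4 (log2 fold change -1.04) and stood at 37.5 and 39.7 at day 8, the only member with its lowest DMSO mean there. With GSK343 Pdk1 was at 65.9 and 84.8 RPKM at day 4, above DMSO without passing (log2 fold change 0.67, SE 0.14, adjusted p = 0.0765), and at 88.8 and 93.8 at day 8, where it was higher than DMSO (log2 fold change 1.22, SE 0.14, adjusted p = 1.50e-04). The day 8 arms did not overlap, and the GSK343 ES libraries were at 113 and 102 RPKM. The Pdk1 and Pfkfb3 calls at day 8 held in each alternative tried. At day 4 Pdk1 was called with the library number as a block. Pfkfb4, an isoform of Pfkfb3, stayed between 1.19 and 3.11 RPKM in the DMSO and GSK343 table and was called in none of its comparisons.

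All 5 genes of mitochondria and energy stores rose from day 4 to day 8 with DMSO, where 23.3% of all genes rose. Bnip3, a receptor for removal of mitochondria, was at 40.1 and 36.7 RPKM in DMSO ES cells, 7.16 and 5.78 at day 4 and 51.7 and 41.99 at day 8. Its fall and its rise both passed, with log2 fold changes of -2.40, SE 0.19, adjusted p = 4.00e-05 and 2.68, SE 0.19, adjusted p = 4.32e-06. Its day 8 arms overlapped, with GSK343 at 35.2 and 46.2 RPKM. Fam162a, a hypoxia-induced mitochondrial protein, fell with GSK343 at day 8 from 345 and 339 to 235 and 256 RPKM (log2 fold change -0.48, SE 0.14, adjusted p = 0.0228). Higd1a, a hypoxia-induced protein of the respiratory chain, had 29.6 and 29.6 RPKM with DMSO and 18.7 and 23.3 RPKM with GSK343 and fell (log2 fold change -0.48, SE 0.14, adjusted p = 0.0218). Both calls were lost when DMSO library 1, DMSO library 2 or GSK343 library 1 was left out, and with the day 8 groups alone. Ak4, a mitochondrial adenylate kinase, had 31.8 and 27.5 RPKM with DMSO and 22.05 and 47.2 RPKM with GSK343, and Gys1, which makes glycogen, had 37.1 and 35.6 and 24.9 and 37.9 RPKM. In both genes the GSK343 libraries lay on either side of the DMSO libraries.

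Among the genes of protein hydroxylation and folding, all 3 tested rose from day 4 to day 8 with DMSO and all 3 were lower with GSK343 at day 8. The shares of all genes called in these directions were 23.3% and 16.0%. P4ha1 and P4ha2 are catalytic subunits of the prolyl 4-hydroxylase that stabilizes collagen, and Ero1l is the oxidase that supplies disulfide bonds in the endoplasmic reticulum. P4ha1 was at 32.7 and 41.8 RPKM in DMSO ES cells, 9.80 and 8.10 at day 4 and 140.5 and 120.4 at day 8 (log2 fold change 3.72, SE 0.20, adjusted p = 9.01e-07 for the last step). With GSK343 it was at 15.3 and 14.2 at day 4, above DMSO and not called, and at 50.2 and 69.9 at day 8, below DMSO (log2 fold change -1.12, SE 0.20, adjusted p = 0.00208). P4ha2 was at 105 and 94.8 RPKM with DMSO and 36.7 and 25.6 with GSK343 at day 8, the largest fall of any member (log2 fold change -1.67, SE 0.27, adjusted p = 0.00107). The P4ha1 and P4ha2 calls at day 8 held in each alternative tried. The collagen genes Col1a1 and Col3a1, markers of mesenchyme, lay lower with GSK343 at day 8 too. Col1a1 was at 16.7 and 31.5 RPKM with DMSO and 0.736 and 1.50 with GSK343, and Col3a1 at 8.52 and 33.97 with DMSO and 0.204 and 0.329 with GSK343; their part was not tested. Ero1l had 84.3 and 59.5 RPKM with DMSO and 43.5 and 48.96 with GSK343 and was called lower (log2 fold change -0.61, SE 0.18, adjusted p = 0.0260); like Slc16a3 it is named after its values were seen. The Ero1l call was lost without DMSO library 1 or GSK343 library 1, and with the day 8 groups alone. Car9, a carbonic anhydrase that exports acid, was at 1.04 RPKM or less in all 18 libraries of the genotype table, and it was called higher at day 8 than at day 4 in wild-type cells.

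Ndrg1 and Ddit4, both linked to growth restraint under stress, followed the common course. Ndrg1 was at 21.3 and 18.1 RPKM in DMSO ES cells, 3.33 and 3.93 at day 4 and 57.4 and 50.4 at day 8 (log2 fold change 3.57, SE 0.21, adjusted p = 1.59e-06 for the last step). At day 8 with GSK343 it was at 19.7 and 32.1 RPKM, below DMSO (log2 fold change -1.07, SE 0.21, adjusted p = 0.00373), and the call held in each alternative tried. In ES cells Ndrg1 had the smallest p of any member for GSK343, at 21.3 and 18.1 RPKM with DMSO and 12.8 and 13.8 with GSK343, without passing (log2 fold change -0.53, SE 0.21, adjusted p = 0.959). Ddit4, an inhibitor of mTOR signalling, was at 267 and 284 RPKM with DMSO and 199 and 205 with GSK343 at day 8, without overlap and without a call.

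**Figure D3:**
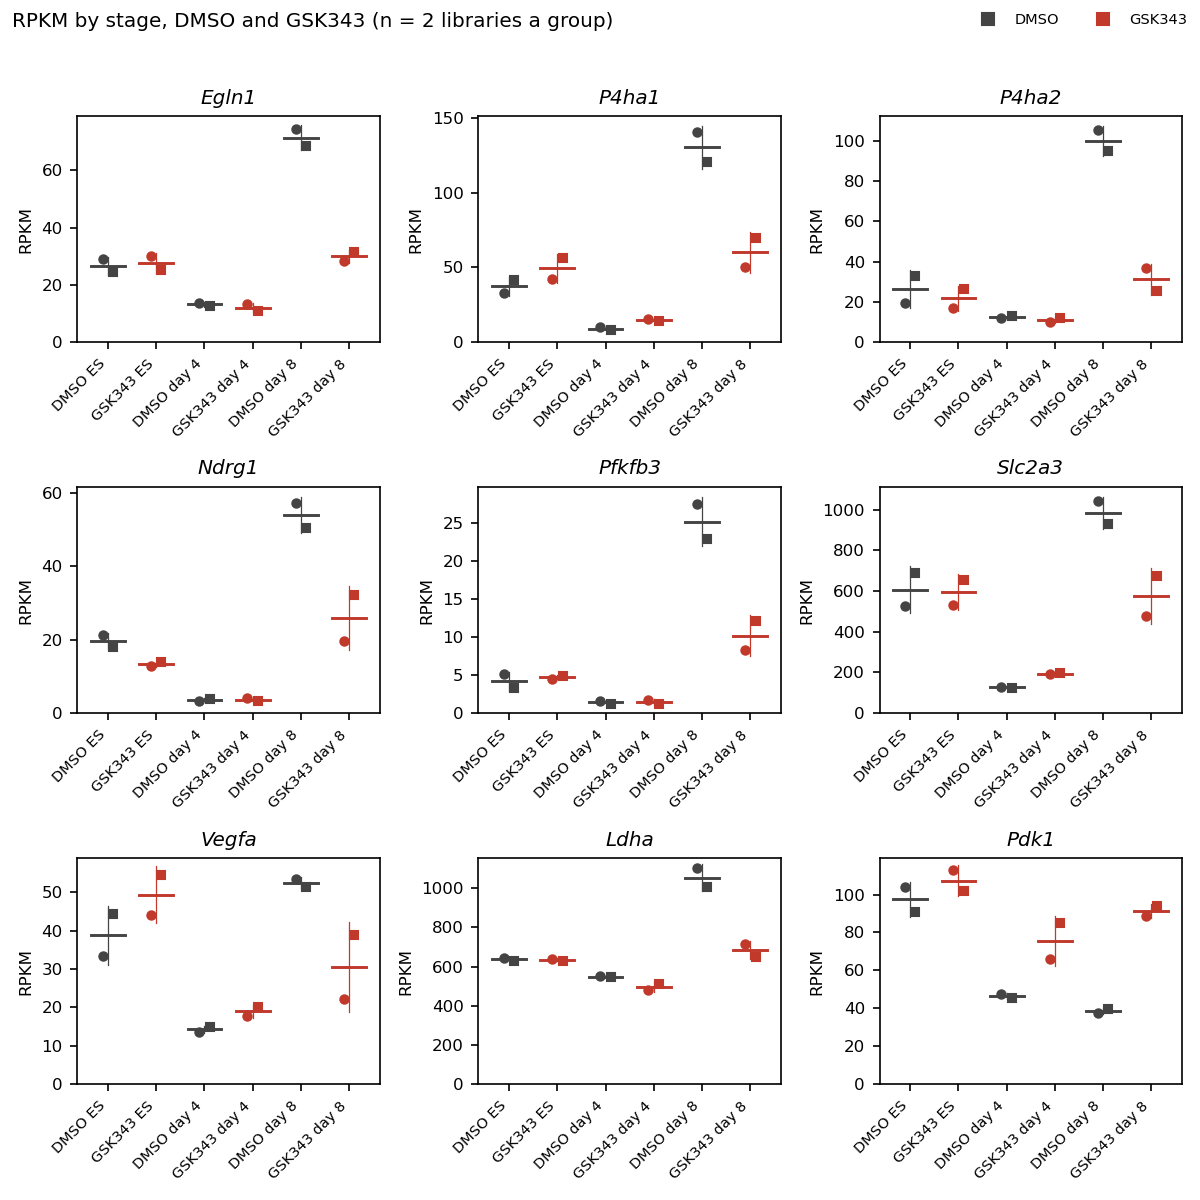
RPKM of 9 members by stage in DMSO (grey) and GSK343 (red) cultures; points are libraries (circle library 1, square library 2), horizontal lines group means and thin vertical lines 1 SD. In 8 panels the GSK343 libraries at day 8 lie below the DMSO libraries, as for Egln1 (28.2 and 31.5 against 74.4 and 68.3), and for Pdk1 they lie above (88.8 and 93.8 against 37.5 and 39.7).

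The GSK343 effect at day 8 differed from that at day 4 for 11 of 38 members by a test of the difference itself, where 12.2% of all genes differed. In all 11 the day 8 effect was the lower one, against 6.51% of all genes in that direction. The difference was largest for P4ha1 (-1.79, SE 0.28, adjusted p = 0.00318) and P4ha2 (-1.49, SE 0.38, adjusted p = 0.0304), followed by Slc2a3 (-1.39, SE 0.29, adjusted p = 0.0120), Pfkfb3 and Vegfa. The members' median difference was -0.68, against 0.02 for all genes. P4ha1 and Slc2a3 had GSK343 levels above DMSO at day 4 and below it at day 8, while P4ha2 had little difference at day 4 (12.1 and 12.97 RPKM with DMSO and 9.75 and 12.1 with GSK343). Kdm3a, whose arms overlapped at day 8, was among the 11 (-0.90, SE 0.23, adjusted p = 0.0318). The count fell to 2, Egln1 and P4ha1, without DMSO day 4 library 2, and these were the only members called in all 14 alternatives.

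The genes that make and control HIF did not share the members' course as a group. Of 14 such genes listed, 12 were tested. With DMSO 4 rose and 0 fell to day 4, then 2 rose and 2 fell to day 8. Of all genes, 32.8% were called in the first step and 41.4% in the second. Hif1a, the best known alpha subunit, rose from 42.8 and 29.8 RPKM in DMSO ES cells to 75.8 and 65.2 at day 4 (log2 fold change 0.96, SE 0.19, adjusted p = 0.00417), the stage at which most members were lowest. Vhl, which targets hydroxylated HIF for destruction, rose from 13.7 and 13.8 to 25.2 and 26.3 RPKM between day 4 and day 8 (log2 fold change 0.86, SE 0.16, adjusted p = 0.00214). Epas1 was the other gene that rose in this step (0.97, SE 0.34, adjusted p = 0.0437). These 2 moved in the members' direction. Both lay lower at day 4 than in DMSO ES cells without a call, Epas1 by -0.46 (SE 0.34) and Vhl by -0.33 (SE 0.16). With GSK343 at day 4 Epas1 was higher without a call (1.47, SE 0.34, adjusted p = 0.109). With GSK343 at day 8, Vhl was lower at 15.2 and 21.3 RPKM (log2 fold change -0.49, SE 0.16, adjusted p = 0.0429) and Arnt, the HIF partner, was higher, at 19.4 and 19.4 against 13.9 and 13.4 RPKM (log2 fold change 0.48, SE 0.16, adjusted p = 0.0462). Hif1a at day 8 had 55.95 and 55.2 RPKM with DMSO and 53.4 and 42.3 with GSK343 and was not called.

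Other known HIF targets, 26 of 27 tested, moved with the members in part. From day 4 to day 8 with DMSO 15 rose and 3 fell, and with GSK343 at day 8 7 fell and 2 rose. Of all genes, 23.3% rose in the DMSO step, and with GSK343 at day 8 16.0% were lower and 15.6% higher. Those that fell included Ppp1r3c, a glycogen-targeting subunit (log2 fold change -2.24, SE 0.21, adjusted p = 4.23e-05), Cxcr4, a chemokine receptor (-1.82, SE 0.27, adjusted p = 6.47e-04), and Gbe1, the glycogen branching enzyme (-1.18, SE 0.14, adjusted p = 1.97e-04). Angptl4, a secreted inhibitor of lipoprotein lipase, rose (2.12, SE 0.26, adjusted p = 1.84e-04), as did the histone demethylase Kdm4c. Of 16 tested glycolytic isoforms outside the members, 8 rose and 2 fell from day 4 to day 8 with DMSO, and 3 fell and 1 rose with GSK343 at day 8. Eno2 was among those that fell (log2 fold change -1.22, SE 0.35, adjusted p = 0.0229), and Tigar, which lowers fructose 2,6-bisphosphate, was the one that rose (1.33, SE 0.14, adjusted p = 6.51e-05). Of 23 genes of pyruvate entry and the citrate cycle, 1 rose and 3 fell from day 4 to day 8 with DMSO. With GSK343 at day 8, 3 of these 23 rose, Pdhb, Mdh2 and Idh3a, and 1 fell, Sdhd. For these genes and for the isoforms, the share called in either direction with GSK343 was below the 31.6% of all genes.

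In EZH2 mutant cells no member was called against wild-type cells at any stage. With limma 0 of 39 passed in ES cells, at day 4 and at day 8, where 0.0917%, 0.0494% and 1.51% of all genes did, and voom also called 0. At an unadjusted p under 0.05 there were 2, 3 and 0 members, against 857, 661 and 2035 of all 14180 genes. The mutant course resembled the wild-type one in outline: the mean was lowest at day 4 in 35 of 39 members and highest at day 8 in 35. The effect of the mutation did not pass as different between day 8 and day 4 for any member (0 of 39 by limma and by voom, 0 at an unadjusted p under 0.05, and 0% of all genes called). Of all genes, 370 had an unadjusted p under 0.05 for that difference.

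**Figure D4:**
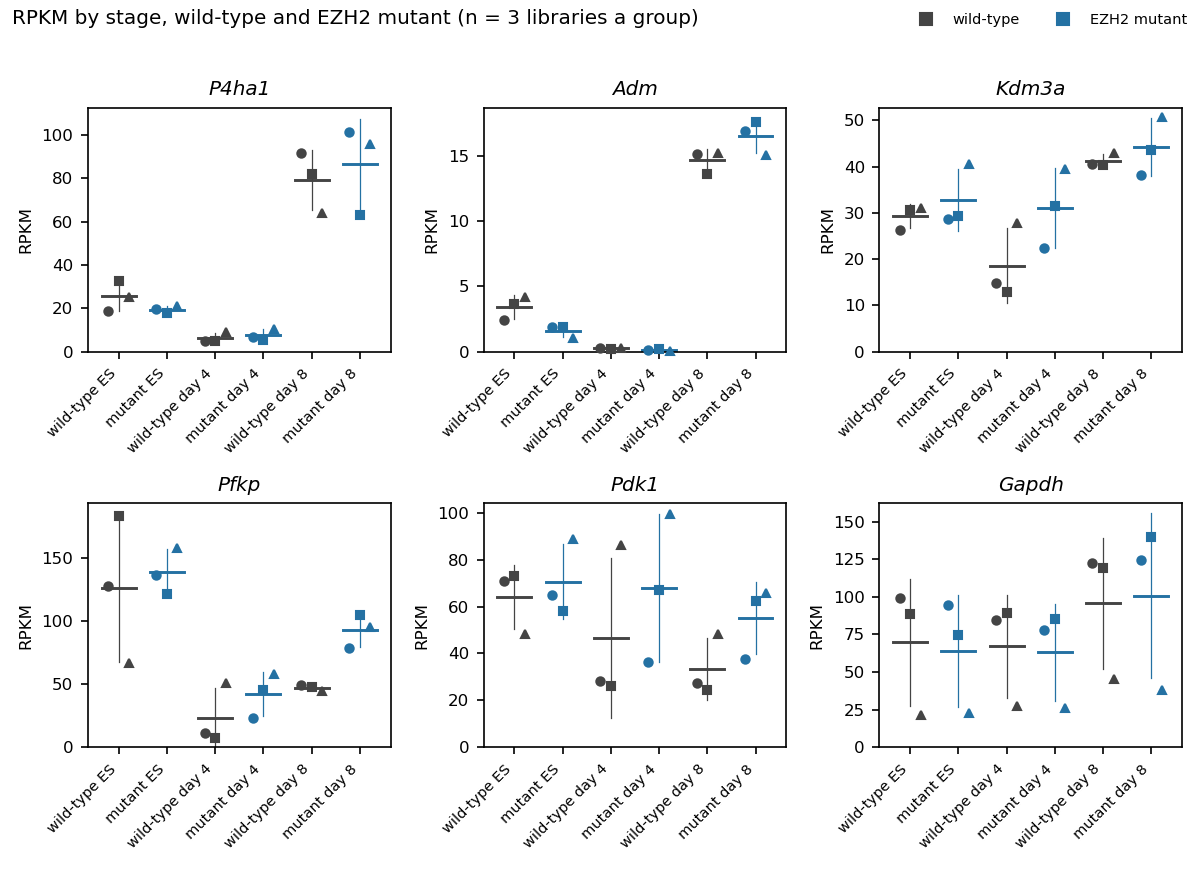
RPKM of 6 members by stage in wild-type (grey) and EZH2 mutant (blue) libraries; circle, square and triangle are libraries 1, 2 and 3, horizontal lines group means and thin vertical lines 1 SD. Gapdh in the libraries numbered 3 (21.5 to 45.3 RPKM) lies below all those numbered 1 or 2, and no difference between wild-type and mutant passed the test.

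The members nearest to a difference between the genotypes were Adm in ES cells, Kdm3a and Pfkp at day 4, and Pfkp at day 8. Adm was at 2.39, 3.64 and 4.19 RPKM in wild-type ES cells, and its mutant libraries, at 1.90, 1.87 and 1.03 RPKM, were all lower (log2 fold change -0.76, SE 0.18, adjusted p = 0.196). Gys1 in ES cells was at 22.9, 17.4 and 15.4 RPKM in wild-type cells against 23.6, 30.98 and 21.7 in mutant cells, with overlap (log2 fold change 0.44, SE 0.21, adjusted p = 0.827). The wild-type day 4 libraries had Kdm3a at 14.9, 12.9 and 27.8 RPKM and the mutant ones at 22.3, 31.5 and 39.4 (log2 fold change 0.76, SE 0.25, adjusted p = 0.634), the wild-type library 3 lying within the mutant range. Pfkp at day 4 was at 10.9, 7.45 and 50.7 RPKM in wild-type cells against 23.5, 45.6 and 57.7 in mutant cells (log2 fold change 1.23, SE 0.52, adjusted p = 0.931), with library 3 of the wild-type above 2 mutant libraries. Within each library number the mutant was the higher one in both genes, and with the number as a block neither passed (Kdm3a 0.76, adjusted p = 0.146). When library 3 of every group was left out, a choice made after seeing the data, Kdm3a (0.89, adjusted p = 0.0478) and Pfkp (1.75, adjusted p = 0.0282) were higher in mutant day 4 embryoid bodies by log2 fold change. Slc2a1 was then lower there (-1.06, adjusted p = 0.0499), and the full data, 266, 209 and 158 RPKM for wild-type against 102, 124 and 115 for mutant libraries, did not overlap. In the same reduced data Bhlhe40 was higher in mutant day 8 embryoid bodies (0.92, adjusted p = 0.0342), and the full data, 18.9, 23.6 and 24.9 RPKM for wild-type against 34.7, 48.1 and 30.3 for mutant libraries, did not overlap either.

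The members that were lower with GSK343 at day 8 were not called in the mutant, and the inhibitor and the mutation were not tested against each other. At day 8 P4ha2 was at 60.8, 68.3 and 27.4 RPKM in wild-type cells against 84.3, 31.4 and 32.9 in mutant cells. Egln1 was at 69.9, 80.9 and 37.3 RPKM in wild-type cells against 70.7, 44.9 and 33.8 in mutant cells. In both genes wild-type library 3 was the lowest and mutant library 1 the highest of its group, and the genotypes overlapped. Pfkfb3 was at 22.9, 34.8 and 16.8 RPKM in the former against 28.6, 14.2 and 15.1 in the latter, again with overlap. Pdk1 was at 27.3, 24.4 and 48.4 RPKM in wild-type cells against 37.7, 62.2 and 65.7 in mutant cells at day 8, with overlap and without passing (log2 fold change 0.73, SE 0.43, adjusted p = 0.491). Pfkp at day 8 was at 49.1, 47.6 and 44.9 RPKM in wild-type cells against 78.6, 105 and 95.4 in mutant cells, without overlap and without passing (log2 fold change 0.96, SE 0.52, adjusted p = 0.435). The sum of the ES cell markers at day 8 was 64.98 to 527 RPKM in wild-type cells against 387 to 1062 in mutant cells, with wild-type library 3 at 527 RPKM and libraries 1 and 2 at 65.1 and 64.98; its part in these levels was not tested.

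After replating, no member and no other gene was called in any of the 5 comparisons of the 4 groups, with limma or with voom (0 of 14367 genes, 0%). At an unadjusted p under 0.05 there were 1 member for GSK343 after DMSO, 5 for early GSK343 with DMSO afterwards, 3 for early GSK343 with GSK343 afterwards, 1 for continued GSK343 after GSK343 and 0 for the difference between the early treatments. In the same order, 328, 3385, 2633, 196 and 187 of all 14367 genes had an unadjusted p under 0.05. The glucose transporter Slc2a3 spanned 0.801 to 96.3 RPKM over these libraries. It was at 47.6, 2.94 and 4.21 RPKM in DMSO then DMSO, 3.40, 0.801 and 4.15 in DMSO then GSK343, 96.3, 48.2 and 21.6 in GSK343 then DMSO and 28.9 and 62.4 in GSK343 then GSK343. All GSK343 then GSK343 libraries were above all DMSO then GSK343 libraries, without passing (log2 fold change 3.66, SE 0.94, adjusted p = 0.120). Slc2a3 was called in this comparison with its groups fitted alone (3.66, adjusted p = 0.0497) and, like Pfkp, without library 1 of GSK343 then GSK343 (4.20, adjusted p = 0.0385 for Slc2a3). GSK343 then DMSO overlapped DMSO then DMSO through library 1 of the latter (log2 fold change 2.25, SE 0.84, adjusted p = 0.170), and without that library Slc2a3 (3.39, adjusted p = 0.0105) and Pfkp (1.97, adjusted p = 0.0468) were called.

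**Figure D5:**
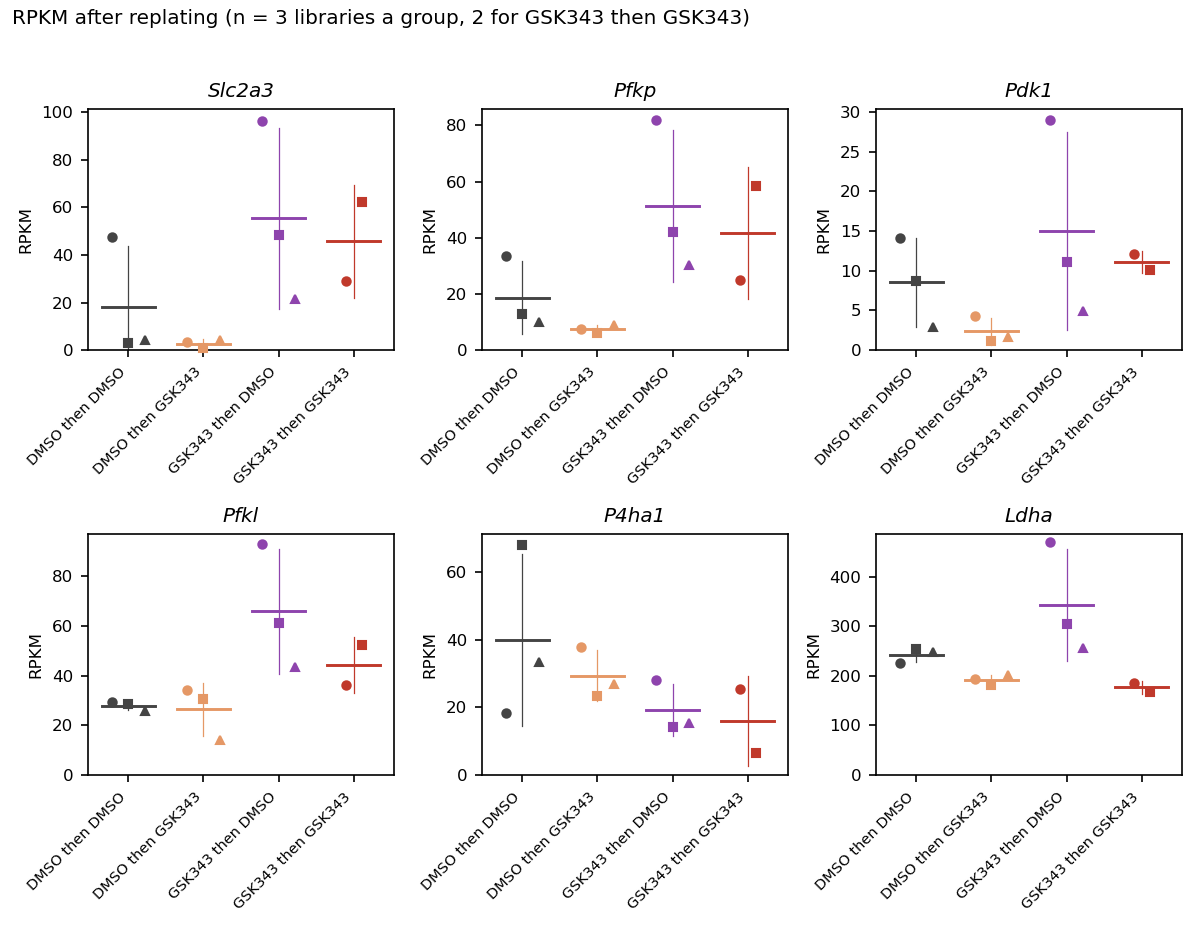
RPKM of 6 members in the 4 replated groups; circle, square and triangle are libraries 1, 2 and 3, horizontal lines group means and thin vertical lines 1 SD. The means of Slc2a3, Pfkp and Pdk1 are lowest in DMSO then GSK343, with Slc2a3 at 3.40, 0.801 and 4.15 RPKM, and library 1 of DMSO then DMSO lies apart from its group in Slc2a3 at 47.6 RPKM.

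Pfkp and Pfkl, phosphofructokinase isoforms, were also higher on average after early GSK343. Pfkp was at 33.5, 12.8 and 9.85 RPKM in DMSO then DMSO and 81.9, 42.1 and 30.2 RPKM in GSK343 then DMSO, with overlap (log2 fold change 1.47, SE 0.51, adjusted p = 0.169). Pfkl was at 29.5, 28.5 and 25.8 RPKM in DMSO then DMSO and 93.1, 61.1 and 43.7 RPKM in GSK343 then DMSO, without overlap and without passing (log2 fold change 1.14, SE 0.41, adjusted p = 0.169). Between the groups kept in GSK343 afterwards, Pfkp was at 7.37, 6.06 and 9.05 RPKM after DMSO and 25.1 and 58.3 RPKM after GSK343, without overlap and without passing (log2 fold change 2.23, SE 0.57, adjusted p = 0.120). Pdk1 had its lowest mean in DMSO then GSK343, at 4.31, 1.15 and 1.69 RPKM, against 14.1, 8.72 and 2.87 RPKM in DMSO then DMSO (log2 fold change -1.40, SE 0.62, adjusted p = 0.885). Ldha was at 471, 304 and 256 RPKM in GSK343 then DMSO and 186 and 168 RPKM in GSK343 then GSK343, without overlap and without passing (log2 fold change -0.91, SE 0.39, adjusted p = 1). Hk1 had 20.6, 23.9 and 39.4 RPKM in GSK343 then DMSO and 15.5 and 17.3 RPKM in GSK343 then GSK343, likewise apart and not called (log2 fold change -0.69, SE 0.41, adjusted p = 1).

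P4ha1 and Egln1, which were lower with GSK343 at day 8, overlapped between all replated groups. P4ha1 was at 18.3, 67.98 and 33.3 RPKM in DMSO then DMSO, 37.9, 23.3 and 27.03 in DMSO then GSK343, 28.2, 14.3 and 15.3 in GSK343 then DMSO and 25.4 and 6.55 in GSK343 then GSK343. Egln1 was at 7.36, 16.7 and 12.9 RPKM in DMSO then DMSO, at 14.3, 26.1 and 11.4 in DMSO then GSK343, at 18.6, 9.54 and 6.64 in GSK343 then DMSO and at 13.2 and 10.1 in GSK343 then GSK343. The summed ES cell markers were 90.7 to 579 RPKM in DMSO then DMSO, 82.3 to 135 in DMSO then GSK343, 699 to 1162 in GSK343 then DMSO and 440.1 to 1194 in GSK343 then GSK343. The highest DMSO then DMSO value was that of library 1, at 579 RPKM, and this library was also the highest of its group in Slc2a3, Pfkp and Pdk1. The summed feeder fibroblast markers were 2603 to 6337, 4201 to 8827, 1434 to 4062 and 1037 to 3260.1 RPKM; the part of either in the members' levels was not tested. The median log2 fold change of all genes was -0.23 for DMSO then GSK343 against DMSO then DMSO, and the members' median there was -0.24.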

How the data were processed

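The values are RPKM per library in 3 tables that the authors deposited, per the file headers. STAR 2.5.3, featureCounts 1.6.1, edgeR and genome build mm10 are named, without role or order, per the submitters' processing notes, and so are Bowtie2 2.3.4.3 and HOMER 4.10.3. Unstated (not given in the sources used here) were annotation, strand use and filters. The authors' log2 fold changes, p-values and false discovery rates, deposited in the same tables per the file headers, were not used. The deposited PRC2_target calls and peak positions were used as given. Per-sample columns left aside numbered 0. In each library RPKM times gene length fell on whole multiples of 1 read, with 100% of values within 0.02 of a whole number, which gave the depths. In the wild-type and mutant table this used lengths from the other tables, with 138 of 14772 genes lacking one.

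Genes with RPKM of at least 0.5 in at least the number of libraries of the smallest group were tested with limma 3.58.1 in R 4.3.3 (trend) on log2(RPKM + 1), all groups of a table in 1 fit. Adjustment was by Benjamini-Hochberg over all genes tested, at 0.05. The fit was tested on simulated data. Fold changes with tests are given for called members, at most the 12 with the smallest p per comparison, or for the 3 with the smallest p where none was called. The members and lists were chosen with earlier results of these data known. Same-numbered libraries deviated together in the wild-type steps and in mutant against wild-type at day 4 (every pair's correlation 0.15 to 0.81), though no label says that numbers were shared. Libraries of different numbers also correlated, at up to 0.478 for mutant against wild-type at day 4 and 0.342 for wild-type day 4 to day 8. Other comparisons had fewer than 3 pairs or a pair at or below 0.1. In the DMSO and GSK343 table, with 2 pairs a comparison, same-numbered libraries correlated at 0.386 to 0.666. With 2 libraries a group both pairs of a comparison hold the same value, so they are not separate evidence. Alternatives were a pseudocount of 0.1, no filter, median ratio scaling, voom on the recovered reads, the compared groups alone, a replicate block and leaving out each library. Leaving out library 3, or library 2, of every group was added after seeing the data. Promoter windows came from RefSeq. Figures were drawn with matplotlib 3.10.9.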

Additional observations from a re-analysis of the deposited data

Results flagged for a closer look

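For 11 members the size of the GSK343 effect differed between day 8 and day 4 embryoid bodies by a limma test of the difference, adjusted over all genes tested, with n = 2 libraries in each of the 4 groups. Each value is the log2 effect at day 8 minus that at day 4. The difference was -1.79 for P4ha1, -1.49 for P4ha2, -1.39 for Slc2a3, -1.25 for Pfkfb3 and -1.19 for Vegfa. It was -1.10 for Egln1, -1.04 for Ndrg1, -0.91 for Ero1l, -0.90 for Kdm3a, -0.88 for Pgk1 and -0.87 for Fam162a. Leaving out single libraries moved the number of such members between 2 and 14, and P4ha1 and Egln1 were called under each of the 14 alternatives. P4ha1 was at 9.80 and 8.10 RPKM with DMSO and 15.3 and 14.2 with GSK343 at day 4, and at 140.5 and 120.4 RPKM with DMSO and 50.2 and 69.9 with GSK343 at day 8.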

How the results depend on the processing

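Direction was checked for the members selected by smallest p in each comparison, and none of these fold changes reversed under any alternative. The direction of the other members was not checked. Pseudocount, filter, median ratio scaling and voom left the count of members called within 1.5 times its main value in every comparison. With only the compared groups fitted, the count became 1 for GSK343 at day 4 (Pfkp), 6 for GSK343 at day 8, 2 for wild-type ES cells to day 4 (Adm, P4ha1) and 1 for GSK343 then GSK343 against DMSO then GSK343 (Slc2a3). Leaving out library 3 of every group, a choice made after seeing the data, gave 28 members for wild-type ES cells to day 4, 3 for mutant against wild-type at day 4 and 1 at day 8. Leaving out library 2 of every group, likewise chosen afterwards, gave 0 for wild-type ES cells to day 4 and 4 for wild-type day 4 to day 8. The cause of these shifts was not tested, and each such fit has fewer samples. The counts in this section cover members only, so they do not show whether calls over all genes shifted alike. Leaving out single libraries gave 7 to 16 members for GSK343 at day 8, 2 to 14 for the difference between day 8 and day 4, 23 to 30 for DMSO ES cells to day 4, 31 to 32 for DMSO day 4 to day 8, 5 to 23 for wild-type ES cells to day 4 and 24 to 30 for wild-type day 4 to day 8. It gave 0 to 2 for mutant against wild-type at day 4 (Kdm3a and Pfkp, without wild-type library 3). It gave 0 to 2 for GSK343 then DMSO against DMSO then DMSO (Slc2a3 and Pfkp, without library 1 of DMSO then DMSO), and 0 to 2 for GSK343 then GSK343 against DMSO then GSK343 (Slc2a3 and Pfkp, without library 1 of GSK343 then GSK343). Where a group of 2 was left with 1 library, that library was assumed to vary like the other groups.

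With the replicate number as a block, 3 members were called for GSK343 at day 4, Kdm3a (adjusted p = 0.0297), Pdk1 (adjusted p = 0.0353) and Pfkp (adjusted p = 0.0234), where limma without the block called 0. The block gave 21 for GSK343 at day 8, 15 for the difference between day 8 and day 4, 34 and 37 for the DMSO steps and 14 and 35 for the wild-type steps, and 0 in the other comparisons; it changed no other call of a named member. In the DMSO and GSK343 table no label ties same-numbered libraries, though they deviated together (correlation 0.386 to 0.666, the same value for both pairs of a comparison). The limma fit without the block did not use this pairing. With 2 libraries a group, and 2.27 M reads in the shallowest replated library, differences within the spread printed were not detectable.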
